A study of Mus musculus with 8 samples.

Results

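The glucocorticoid receptor gene Nr3c1 and 5 genes that the receptor is known to induce, Fkbp5, Tsc22d3, Per1, Klf9 and Sgk1, were followed through the deposited expression table by their gene symbols. All 6 were among the 17518 genes listed and among the 11911 genes tested. The data are RNA sequencing of polyadenylated RNA from MH-S, an established mouse alveolar macrophage cell line, in 8 libraries. The study concerned nanoparticles for acute lung injury, and its title and labels name no glucocorticoid.

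The first group was cells that received nanoparticles named RCMNs in the presence of lipopolysaccharide, a Gram-negative outer membrane lipid that triggers inflammatory signalling through Toll-like receptor 4 (LPS+RCMNs, n = 3), at 100 ng/mL LPS and 1 µg/mL RCMNs. The second was cells that received lipopolysaccharide without nanoparticles (LPS, n = 2), for which no separate dose is stated. The third was control cells given phosphate-buffered saline (n = 3). Whether the replicates were separate cultures is not stated, so the p-values reflect the spread among the sequenced samples alone, and that spread may be technical. MH-S is a single line in culture, and in bulk RNA fewer cells of a type and less RNA per cell cannot be told apart.

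The glucocorticoid receptor is a steroid-activated transcription factor that waits in the cytoplasm in a complex with the chaperone Hsp90, the cochaperone p23 and immunophilins. Once it has bound hormone it enters the nucleus and binds DNA, typically as a dimer on an inverted repeat of the half-site AGAACA, and raises some genes while lowering many inflammatory ones. Macrophages carry the receptor, and glucocorticoids are used as drugs because they dampen macrophage cytokine production. The 5 target genes serve as common readouts of receptor activity, although each also answers to other signals: Fkbp5 encodes an immunophilin that lowers the receptor's affinity for hormone, Tsc22d3 encodes the anti-inflammatory protein GILZ, Per1 is a repressor of the circadian clock, Klf9 is a zinc finger repressor of transcription, and Sgk1 is a kinase that acts on ion channels and cell survival.

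Promoter sequences from RefSeq (GRCm38.p6, the 250 bases before a transcript start) were matched for 5 of the 6 genes, Nr3c1 being named only. There were 6 for Sgk1, 3 for Tsc22d3, 2 for Per1 and 1 each for Fkbp5 and Klf9. They are shown because the results turn on which of these genes moved together. The letters searched, on both strands, were the receptor half-site AGAACA, its inverted repeat with 3 bases between the arms, the E-box CACGTG bound by clock factors, and the cAMP response element TGACGTCA. Capitals mark the matches, and positions count back from -1 at the last base before the start.
Sgk1 start 5 (chr10:21993640-21993889, plus strand): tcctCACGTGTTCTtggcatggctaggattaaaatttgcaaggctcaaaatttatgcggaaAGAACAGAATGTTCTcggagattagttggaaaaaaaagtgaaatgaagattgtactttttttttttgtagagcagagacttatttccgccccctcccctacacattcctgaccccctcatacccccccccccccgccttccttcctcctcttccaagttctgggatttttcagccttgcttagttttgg
Tsc22d3 start 3 (chrX:140600523-140600772, minus strand): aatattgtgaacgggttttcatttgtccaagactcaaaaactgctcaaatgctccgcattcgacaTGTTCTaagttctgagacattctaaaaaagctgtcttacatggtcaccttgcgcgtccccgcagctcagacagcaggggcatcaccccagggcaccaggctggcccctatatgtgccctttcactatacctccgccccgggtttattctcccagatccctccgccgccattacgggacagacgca
Per1 start 1 (chr11:69098699-69098948, plus strand): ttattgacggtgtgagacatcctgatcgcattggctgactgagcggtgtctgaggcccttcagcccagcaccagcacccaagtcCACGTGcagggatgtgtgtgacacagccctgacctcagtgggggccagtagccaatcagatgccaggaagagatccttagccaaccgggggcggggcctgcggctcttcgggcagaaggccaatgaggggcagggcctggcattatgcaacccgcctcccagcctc
Fkbp5 (chr17:28486150-28486399, minus strand): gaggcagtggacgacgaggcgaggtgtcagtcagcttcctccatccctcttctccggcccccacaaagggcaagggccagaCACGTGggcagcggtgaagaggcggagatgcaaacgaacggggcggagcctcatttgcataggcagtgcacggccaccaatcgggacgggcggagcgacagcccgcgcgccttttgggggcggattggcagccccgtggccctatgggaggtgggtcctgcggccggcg
Start 5 of Sgk1 holds the inverted repeat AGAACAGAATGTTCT at -189 to -175, a match found in 3 of 32851 RefSeq promoters of this length (0.00913%). The same window holds an E-box at -246 to -241 that overlaps a further half-site at -242 to -237. Start 3 of Tsc22d3 holds a half-site at -185 to -180, and half-sites also lie before starts 1 and 4 of Sgk1. The half-site occurs in 16.1% of promoters. The E-boxes of Per1 (-166 to -161) and Fkbp5 (-169 to -164) are a match found in 6.02% of promoters. No match was found in the windows of Klf9, Per1 start 2, Tsc22d3 starts 1 and 2, or Sgk1 starts 2, 3 and 6. The cAMP response element, present in 1.55% of promoters, was in none of the members' windows. These matches describe letters in a short window and say nothing of binding.

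Library totals lay between 18.6 and 21.2 M counts (M, mega), and levels are given as CPM, counts per M after TMM scaling of the library. Of the 12 listed macrophage markers, Ptprc, Cd68, Lyz2 and Csf1r were expressed, and Itgax was at 6.24 to 25.7 CPM. Siglecf and Marco, markers of alveolar macrophages, were near 0 (at most 0.186 and 1.32 CPM). Within their groups, 2 libraries differed from the rest: replicate 2 of LPS+RCMNs and replicate 1 of control. Their median absolute log2 difference from those was 0.227 to 0.247, against 0.0785 between LPS+RCMNs replicates 1 and 3, and 0.0653 between control replicates 2 and 3. In the LPS libraries the level depended on transcript length: relative to control, genes in the shortest 10% had a median log2 level of 1.23 and 1.24, and those in the longest 10% of -1.03 and -0.936, while the other 6 libraries stayed between -0.125 and 0.0997. The 6 erythroid markers summed to 0.658 to 34.1 CPM in LPS+RCMNs, 4359 to 5623 CPM in LPS and 0.824 to 20.7 CPM in control. The 6 neutrophil markers summed to 0.147 to 0.608 CPM in LPS+RCMNs, 4.97 to 5.57 CPM in LPS and 0.0433 to 0.0929 CPM in control. Most of the sum in LPS came from S100a8 (2.24 and 2.12 CPM) and S100a9 (2.18 and 2.67 CPM). Retnlg was at 0.424 and 0.606 CPM there, Elane and Mpo at most at 0.121 and 0.182 CPM, and Ly6g at 0. None of these markers was at 0 in all libraries. These differences move with the LPS group in every result below, and the part of the red cell and neutrophil marker transcripts in those results was not tested. The part that goes with length was measured by removing from each library a smooth trend on length, or a smooth surface on length and mean level.

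Nr3c1, the receptor gene itself (gene ID 14815, chr18:39410545-39519421, GRCm38.p6), fell in cells given LPS and was higher again, but below control, in cells given LPS+RCMNs. Its level was 47.9, 39.2 and 47.1 CPM in the LPS+RCMNs libraries, 28.1 and 25.3 CPM in the LPS libraries, and 67.4, 61.7 and 62.3 CPM in the control libraries. The 3 groups occupied separate ranges, with LPS lowest and control highest. The log2 fold change was -1.26 ± 0.12 (SE) for LPS versus control (adjusted p = 2.38e-05), 0.74 ± 0.12 for LPS+RCMNs versus LPS (adjusted p = 5.76e-04) and -0.51 ± 0.10 for LPS+RCMNs versus control (adjusted p = 0.0191). The last was no longer called when control replicate 2, control replicate 3 or LPS+RCMNs replicate 3 was left out, although the value itself stayed between -0.56 and -0.40 whichever single library was dropped.

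Nr3c1 has a long transcript: the length implied by its deposited counts and FPKM is 6.37 kb, at the 90.7th percentile of tested genes. With the length trend removed, LPS versus control was -0.52 (adjusted p = 0.00632), LPS+RCMNs versus LPS was 0.06 (adjusted p = 0.729) and LPS+RCMNs versus control was -0.46 (adjusted p = 0.0267). With length and level removed together these became -0.36 (adjusted p = 0.0314), -0.10 (adjusted p = 0.514) and -0.45 (adjusted p = 0.0248). The lower receptor transcript in both LPS-treated groups relative to control was thus called under both corrections, while the difference between LPS+RCMNs and LPS was called under neither.

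**Figure D1:**
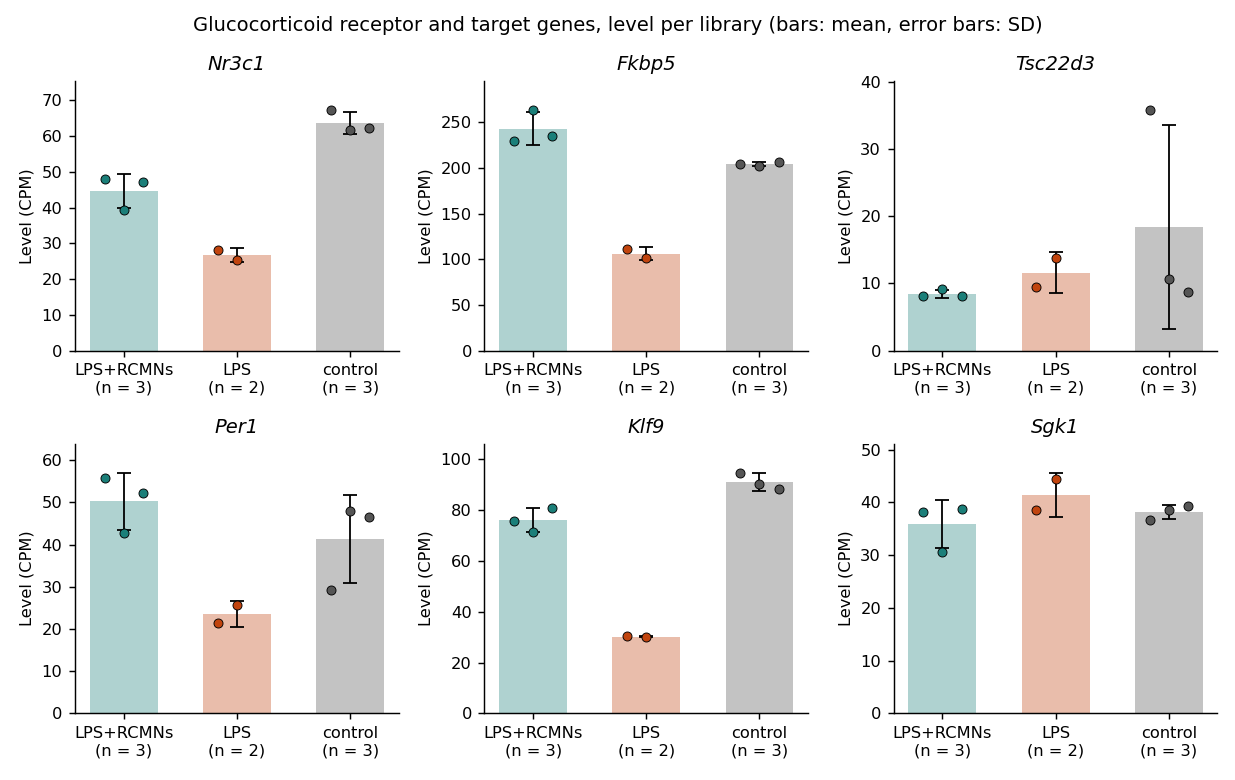
Level of each of the 6 genes in every library, in CPM, with points for libraries, bars for the group mean and error bars for the SD. For Nr3c1, Fkbp5, Klf9 and Per1 no LPS library reaches the range of LPS+RCMNs or control, while the tall error bar of Tsc22d3 in control comes from replicate 1 at 35.8 CPM.

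Fkbp5 (gene ID 14229, chr17:28398753-28486149) was the most abundant of the 6 genes and was lowest in LPS. Its level was 229.7, 263 and 235 CPM in LPS+RCMNs, 112 and 101 CPM in LPS, and 204, 202 and 206 CPM in control. Every LPS+RCMNs library was above every control library, and both LPS libraries were far below the rest. Fkbp5 fell by 0.94 ± 0.10 (SE) on the log2 scale in LPS versus control (adjusted p = 3.66e-05) and rose by 1.19 ± 0.10 in LPS+RCMNs versus LPS (adjusted p = 1.35e-05). The value for LPS+RCMNs versus control was 0.25 ± 0.08 (95% interval before adjustment 0.06 to 0.44), which was not called (adjusted p = 0.111). Without the 2 libraries that stood apart it was 0.22 and was called (adjusted p = 0.0363). With length and level removed the first 2 values were -0.78 and 0.96, both still called. On the scale per length, Fkbp5 averaged 66.8 ± 5.23 FPKM in LPS+RCMNs (SD, n = 3), 21.9 ± 1.09 FPKM in LPS (SD, n = 2) and 58.9 ± 1.31 FPKM in control (SD, n = 3).

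Klf9 (gene ID 16601, chr19:23141226-23168129) showed the largest fold changes of the called members, with little spread within groups. It was at 75.9, 71.5 and 81.0 CPM in LPS+RCMNs, 30.3 and 30.2 CPM in LPS, and 94.8, 90.3 and 88.1 CPM in control. The groups did not overlap, and LPS+RCMNs lay between the others, nearer to control. Klf9 fell by 1.59 ± 0.10 (SE) in LPS versus control (adjusted p = 2.25e-06) and rose by 1.33 ± 0.10 in LPS+RCMNs versus LPS (adjusted p = 6.47e-06), on the log2 scale. For LPS+RCMNs versus control it was -0.26 ± 0.08 (95% interval before adjustment -0.44 to -0.08), not called (adjusted p = 0.0877). The first 2 values were -1.08 and 0.83 with length and level removed, and both stayed called.

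Per1 (gene ID 18626, chr11:69095108-69109965) had the same order of group means as Fkbp5 but more spread. It was at 55.9, 42.8 and 52.2 CPM in LPS+RCMNs, 21.3 and 25.7 CPM in LPS, and 29.3, 48.0 and 46.5 CPM in control. The lowest control library was replicate 1, one of the 2 that stood apart, and it lay near the LPS range without entering it. Per1 fell by 0.81 ± 0.22 (SE) on the log2 scale in LPS versus control (adjusted p = 0.00998) and rose by 1.10 ± 0.22 in LPS+RCMNs versus LPS (adjusted p = 0.00224). LPS+RCMNs and control overlapped, with a value of 0.28 ± 0.19 (95% interval before adjustment -0.14 to 0.71; adjusted p = 0.414). The fall was no longer called without LPS replicate 1 (-0.68, adjusted p = 0.0921) or with length removed (-0.27, adjusted p = 0.291). The rise was 0.59 with length removed (adjusted p = 0.0382) and 0.51 with length and level removed (adjusted p = 0.0849).

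Tsc22d3 (gene ID 14605, chrX:140539528-140600522) was not called by edgeR in any of the 3 comparisons. Its level was 8.19, 9.16 and 8.07 CPM in LPS+RCMNs, 9.45 and 13.8 CPM in LPS, and 35.8, 10.7 and 8.73 CPM in control. One library, control replicate 1, was more than 3 times the level of either other control library, and apart from it the groups lay close together. The log2 fold changes were -0.67 ± 0.53 (SE) for LPS versus control (adjusted p = 0.299), -0.45 ± 0.53 for LPS+RCMNs versus LPS (adjusted p = 0.488) and -1.12 ± 0.47 for LPS+RCMNs versus control (adjusted p = 0.199). Without control replicate 1 these values were 0.26, -0.45 and -0.19, so the direction of the first turned. Without control replicate 1 and LPS+RCMNs replicate 2, Tsc22d3 was lower in LPS+RCMNs than in LPS (-0.54, adjusted p = 0.0201). On log2(TPM + 1) limma called it lower in LPS versus control (-1.34, adjusted p = 0.0316), where the median of all genes was at -0.79.

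Sgk1 (gene ID 20393, chr10:21882184-21999903) was not called in any comparison of CPM levels by edgeR either, and here the spread was small. It was at 38.2, 30.7 and 38.8 CPM in LPS+RCMNs, 38.5 and 44.4 CPM in LPS, and 36.7, 38.6 and 39.2 CPM in control. All 3 groups overlapped except that one LPS library, replicate 2, was above all others. The log2 fold change was 0.12 ± 0.13 (SE, 95% interval -0.17 to 0.41) for LPS versus control, -0.21 ± 0.13 (-0.49 to 0.08) for LPS+RCMNs versus LPS and -0.09 ± 0.11 (-0.35 to 0.17) for LPS+RCMNs versus control. These intervals leave room for changes of up to about 0.49 on the log2 scale. The sign depended on the scale: on log2(FPKM + 1), where the median of all genes was itself at -0.33 in LPS versus control, Sgk1 was at -0.34 and called by limma (adjusted p = 0.0337). On log2(TPM + 1), with that median at -0.79 in LPS versus control and 0.71 in LPS+RCMNs versus LPS, limma called Sgk1 at -0.84 (adjusted p = 0.000351) and 0.67 (adjusted p = 0.00139).

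**Figure D2:**
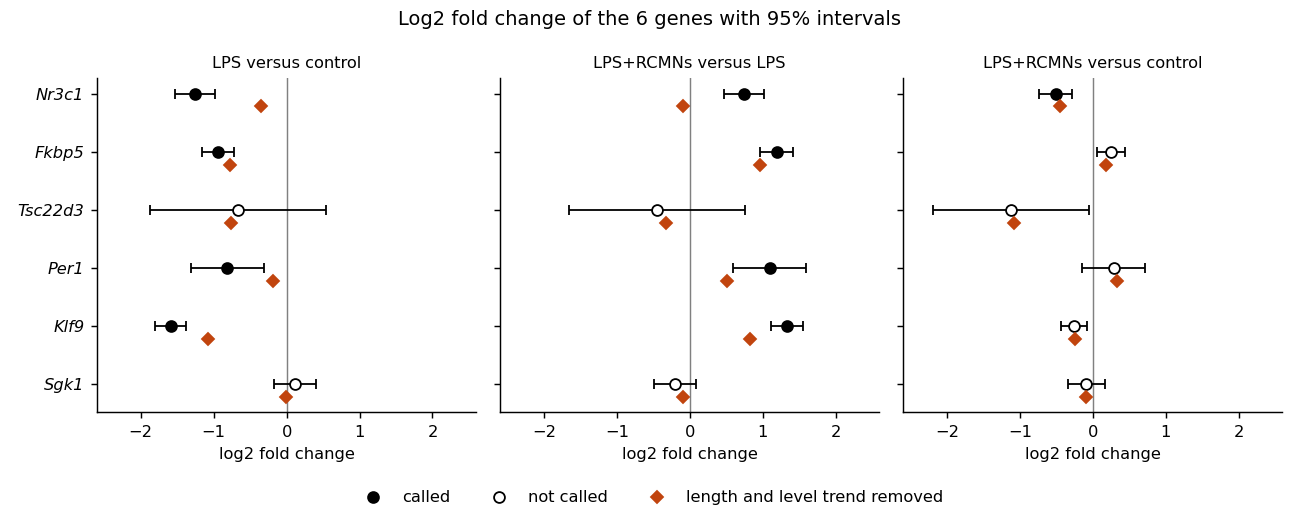
Log2 fold change of the 6 genes in the 3 comparisons, with 95% intervals before adjustment (circles, filled where called at an adjusted p below 0.05) and the value after removing each library's trend on length and level (diamonds). Fkbp5 and Klf9 keep most of their change in the left and middle panels, whereas Nr3c1 in the middle panel goes to -0.10, and Sgk1 lies near 0, with a sign that turns in the left panel after removal and on the FPKM and TPM scales.

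Counted together, none of the 6 genes rose and 4 fell in LPS versus control, a comparison in which 31.4% of all tested genes were called higher and 32.1% lower. In LPS+RCMNs versus LPS, 4 rose and none fell, beside 29.8% of all tested genes higher and 29.5% lower. In LPS+RCMNs versus control, none rose and 1, Nr3c1, fell, beside 4.33% of all tested genes higher and 3.23% lower. The median log2 fold change of the 6 was -0.88, 0.92 and -0.17 in the 3 comparisons, and that of all tested genes was -0.04, 0.03 and -0.02. The LPS versus control and LPS+RCMNs versus LPS comparisons share the 2 LPS libraries, so a low level there appears in both with opposite sign. With length and level removed, 2 of the 6, Fkbp5 and Klf9, still rose in LPS+RCMNs versus LPS, and the count that fell in LPS versus control was 3. Of all 11911 tested genes, 2278 rose in LPS+RCMNs versus LPS and 2644 fell in LPS versus control under that removal.

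Per length of transcript, the order of the 6 genes differed between groups. In LPS+RCMNs it was Fkbp5, Klf9 (18.1 ± 1.09 FPKM), Sgk1 (15.7 ± 1.92), Per1 (11.4 ± 1.49), Nr3c1 (7.41 ± 0.775) and Tsc22d3 (4.39 ± 0.436; SD, n = 3), with each neighbour apart by more than either SD. In LPS it was Fkbp5, Sgk1 (13.7 ± 1.68 FPKM), Klf9 (5.39 ± 0.0990), Tsc22d3 (4.39 ± 1.14), Per1 (3.96 ± 0.573) and Nr3c1 (3.30 ± 0.191; SD, n = 2), where Tsc22d3 lay within its spread of Klf9, Per1 and Nr3c1. In control it was Fkbp5, Klf9 (22.8 ± 1.28 FPKM), Sgk1 (17.5 ± 0.296), Nr3c1 (11.1 ± 0.735), Tsc22d3 (10.3 ± 8.32) and Per1 (9.84 ± 2.31; SD, n = 3), where the last 3 did not differ beyond their spread. Sgk1 thus ranked above Klf9 in the LPS means and below it in the LPS+RCMNs and control means.

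**Figure D3:**
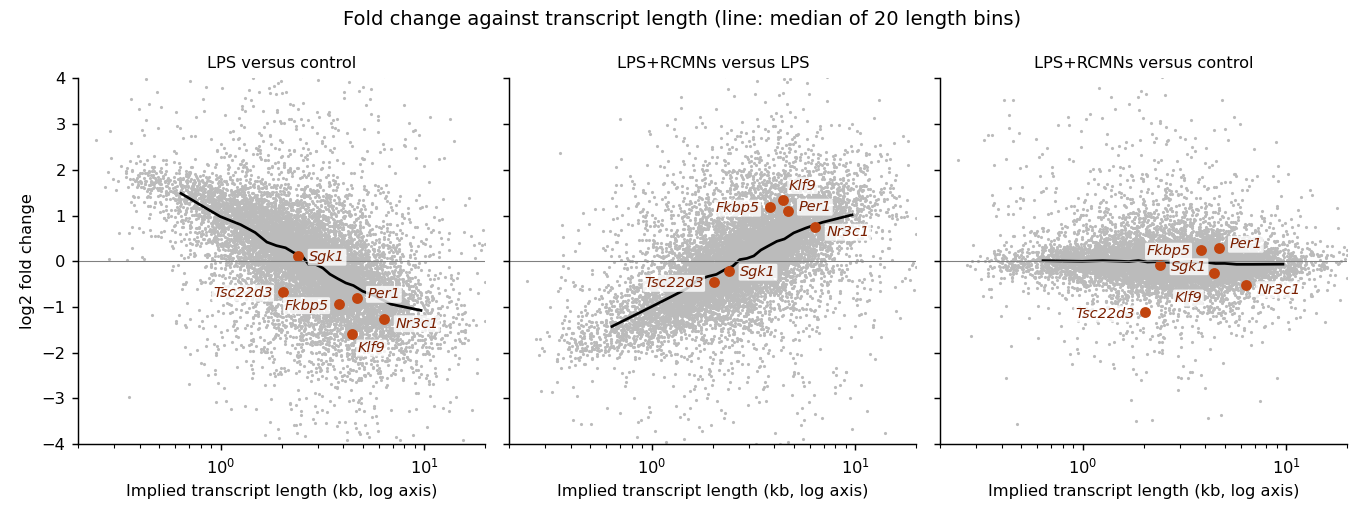
Log2 fold change of every tested gene (grey) against implied transcript length in kb on a log axis, with the median of 20 length bins (line) and the 6 genes (orange); values beyond ±4 are not drawn. In the left panel Per1 lies near the line and Nr3c1, Fkbp5 and Klf9 below it, in the middle panel Nr3c1 lies on the line and Fkbp5, Klf9 and Per1 above it, and in the right panel the line is flat with Nr3c1 below it at -0.51.

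The genes whose pattern over the 8 libraries was most like each member were found by the smallest root mean square difference of centred log2 CPM, among 7959 tested genes with a mean of at least 5 FPKM. For Nr3c1 they were Vcl (0.0679), Pdk1 (0.0844) and Hlx (0.0873). For Fkbp5 they were Hs6st1 (0.0697), Slc35a3 (0.0737) and Ermp1 (0.0816). For Klf9 they were Ncoa3 (0.0436), a coactivator of nuclear receptors, Plxnd1 (0.0588) and Kntc1 (0.0606). Per1 was nearest to Slc16a6 (0.0792), Rmi1 (0.0801) and Stab1 (0.0946). Sgk1 was nearest to Vamp3 (0.0519), Leo1 (0.0628) and Stambpl1 (0.0664). Tsc22d3 had no close match: its nearest were Zfp385a (0.342), Pfkm (0.352) and Bbc3 (0.370). None of the members was the nearest match of another, and the closest pair among them was Nr3c1 and Klf9 (0.237), followed by Fkbp5 and Per1 (0.278). All of these genes share the same libraries and the same length trend.

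The chaperones and cochaperones listed for the receptor complex moved opposite to Fkbp5 in both comparisons with LPS, and, as measured, opposite to Nr3c1. All 15 tested rose in LPS versus control (median log2 fold change 1.09) and all 15 fell in LPS+RCMNs versus LPS (median -1.19), while only Hsp90aa1 was called in LPS+RCMNs versus control. The shares of all tested genes were 31.4% higher in LPS versus control and 29.5% lower in LPS+RCMNs versus LPS. In LPS+RCMNs versus control they were 4.33% higher and 3.23% lower. Hspa8, the constitutive Hsp70 chaperone, rose by 2.14 and fell by 2.02, and Hsp90ab1, the constitutive Hsp90, rose by 1.09 and fell by 1.19. Hsp90aa1, the inducible Hsp90 isoform, was at 1669.5, 1914 and 1709 CPM in LPS+RCMNs, 3236 and 2989 CPM in LPS, and 1078, 1345 and 1317 CPM in control. Its 3 groups did not overlap, with log2 fold changes of 1.32 ± 0.11 for LPS versus control, -0.82 ± 0.11 for LPS+RCMNs versus LPS and 0.50 ± 0.10 for LPS+RCMNs versus control (adjusted p = 0.0214). Ptges3, which encodes p23, rose by 0.76 and fell by 0.69, but was at 0.01 and -0.06 with length and level removed. The extreme members, chosen after their values were seen, were the stress-inducible Hsp70 genes Hspa1a and Hspa1b, near-identical copies whose reads cannot be split with certainty. Hspa1a was at 0.0981, 0.608 and 0 CPM in LPS+RCMNs, 937 and 577 CPM in LPS, and 0.390, 0 and 0.372 CPM in control. With length and level removed, 9 of the 15 chaperone genes rose and 1 fell in LPS versus control (median 0.60), and 1 rose and 11 fell in LPS+RCMNs versus LPS (median -0.61). Nr3c1 was then at -0.10 in LPS+RCMNs versus LPS and not called (adjusted p = 0.514), on the same side of 0 as that median. Of all 11911 tested genes, 2449 rose and 2644 fell in LPS versus control under that removal. In LPS+RCMNs versus LPS, 2278 rose and 2294 fell. On the TPM scale in LPS versus control, where the median of all genes was at -0.79, 7 of the 15 rose and 1 fell, and the list's median was 0.10 as measured, with no subtraction of the median of all genes. Of all tested genes, 1020 rose and 8173 fell on that scale.

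Fkbp4, the paralogue of Fkbp5 that competes with it for the receptor complex and favours the receptor's transport to the nucleus, moved opposite to Fkbp5. It was at 180, 292 and 183 CPM in LPS+RCMNs, 558 and 475 CPM in LPS, and 302, 215 and 219 CPM in control. The LPS libraries were the highest, and LPS+RCMNs and control overlapped. Fkbp4 rose by 1.08 ± 0.23 (SE) in LPS versus control (adjusted p = 0.0025) and fell by 1.24 ± 0.23 in LPS+RCMNs versus LPS (adjusted p = 0.00117), with -0.17 in LPS+RCMNs versus control (adjusted p = 0.68). With length and level removed the rise was 0.51 and not called (adjusted p = 0.095), and the fall was 0.79 and called (adjusted p = 0.021). The ratio of Fkbp5 to Fkbp4 per length, a measure chosen after the values were seen, was 0.716, 0.506 and 0.720 in LPS+RCMNs, 0.112 and 0.119 in LPS, and 0.378, 0.525 and 0.528 in control. Both LPS libraries were below all others, and LPS+RCMNs overlapped control because its replicate 2 was the lowest of its group. The implied transcript length is 3.83 kb for Fkbp5 and 2.15 kb for Fkbp4, and the ratio keeps the length trend of the LPS libraries. The part of that trend in the ratio was not tested. With length and level removed, Fkbp5 was at -0.78 and Fkbp4 at 0.51 in LPS versus control. An exact two-sided permutation test gave p = 0.2 for each comparison with LPS, the smallest that 3 against 2 libraries can give, and p = 0.3 for LPS+RCMNs versus control. With that lower limit, and a ratio picked after its values were seen, the test cannot decide whether the ratio differs in LPS.

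**Figure D4:**
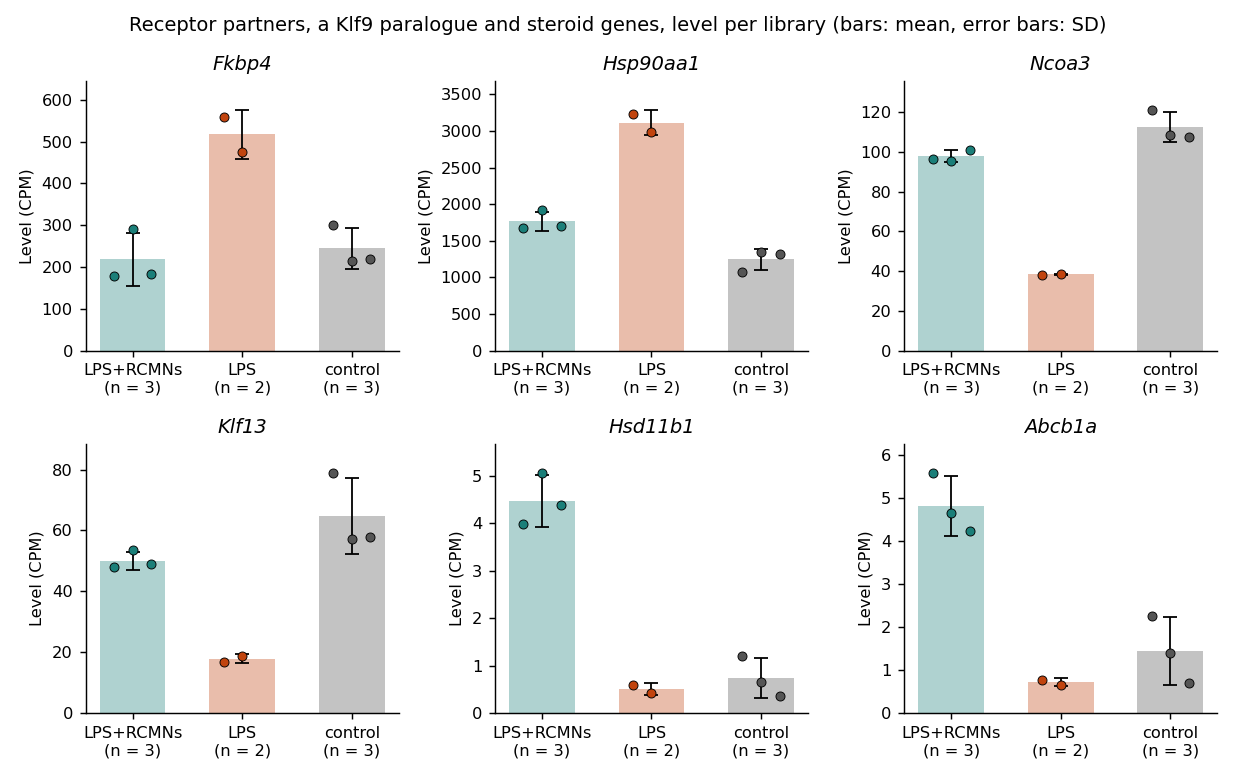
Level in every library, in CPM, of 2 receptor complex genes (Fkbp4, Hsp90aa1), the coactivator Ncoa3, the Klf9 paralogue Klf13, and Hsd11b1 and Abcb1a of steroid metabolism and export, with bars for the mean and error bars for the SD. Fkbp4 and Hsp90aa1 are highest in LPS, Ncoa3 and Klf13 are lowest there, and Hsd11b1 and Abcb1a are highest in LPS+RCMNs, where they reach 5.06 and 5.59 CPM.

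The coregulators through which the receptor acts on chromatin mostly fell with LPS and were higher with LPS+RCMNs, as Nr3c1 did. Of 14 tested, 1 rose, 10 fell and 3 were not called in LPS versus control (median -0.92), 10 rose, 3 fell and 1 was not called in LPS+RCMNs versus LPS (median 0.73), and none was called in LPS+RCMNs versus control. Beside the first 2 sets of counts, the shares of all tested genes were 31.4% higher and 32.1% lower, then 29.8% higher and 29.5% lower. In LPS+RCMNs versus control they were 4.33% higher and 3.23% lower. The corepressor gene Ncor1 fell by 0.79 in LPS versus control and rose by 0.64 in LPS+RCMNs versus LPS, and Med1, a mediator subunit, fell by 0.41 and rose by 0.31. The deacetylase Hdac2 rose by 0.56 in LPS versus control, and Hdac2, Carm1 and Hdac3 fell by 0.68, 0.55 and 0.34 in LPS+RCMNs versus LPS. Many of these transcripts are long, and with length and level removed the medians were -0.02 and -0.15, with 0 higher and 5 lower in the first comparison and 2 higher and 2 lower in the second. Over all 11911 tested genes that removal left 2449 higher and 2644 lower in the first, and 2278 higher and 2294 lower in the second. Ncor1 and Med1 then turned in both (0.09 and 0.21, then -0.26 and -0.30), and Hdac3 turned in the second (0.03). Ncoa3 kept its direction: it was at 96.6, 95.5 and 101 CPM in LPS+RCMNs, 38.3 and 38.5 CPM in LPS, and 121, 108 and 108 CPM in control. Both LPS libraries lay far below the rest, with log2 fold changes of -1.55 ± 0.09 and 1.35 ± 0.09, or -0.70 and 0.52 with length and level removed, all called.

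Hsd11b1 and Abcb1a, genes that bear on how much active steroid a cell holds, were higher in LPS+RCMNs than in either other group. Hsd11b1 encodes the enzyme that regenerates active glucocorticoid from its inert 11-keto form inside the cell. It was at 3.97, 5.06 and 4.37 CPM in LPS+RCMNs, 0.606 and 0.424 CPM in LPS, and 1.21, 0.652 and 0.372 CPM in control. Every LPS+RCMNs library was above every other library, while LPS and control overlapped. Hsd11b1 rose by 3.10 ± 0.47 (SE) in LPS+RCMNs versus LPS (adjusted p = 0.000407) and by 2.56 ± 0.37 in LPS+RCMNs versus control (adjusted p = 0.0041), on a low level of 272, 17 and 50 counts summed over the LPS+RCMNs, LPS and control libraries. With length and level removed these values were 3.51 and 2.48, both called. Hsd11b2, which encodes the enzyme of the opposite reaction, was near 0 throughout (at most 0.182 CPM) and was not tested.

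Abcb1a, one of the mouse genes for the drug and steroid exporter P-glycoprotein, was at 5.59, 4.66 and 4.23 CPM in LPS+RCMNs, 0.787 and 0.666 CPM in LPS, and 2.25, 1.40 and 0.697 CPM in control. Again the LPS+RCMNs libraries were above all others. Abcb1a rose by 2.72 ± 0.47 (SE) in LPS+RCMNs versus LPS (adjusted p = 0.000844) and by 1.73 ± 0.36 in LPS+RCMNs versus control (adjusted p = 0.0212). The call against control was lost without control replicate 2, LPS+RCMNs replicate 1 or LPS+RCMNs replicate 3. Its close copy Abcb1b, at 91.8 to 133 CPM, fell by 0.34 in LPS versus control and rose by 0.43 in LPS+RCMNs versus LPS, but was at 0.02 in both with length and level removed. Reads shared between the copies could be split either way. H6pd, which supplies the cofactor of the Hsd11b1 enzyme, fell by 0.82 in LPS versus control and rose by 0.70 in LPS+RCMNs versus LPS. Nr3c2, the mineralocorticoid receptor gene, was low (0.182 to 1.11 CPM), fell by 1.77 and rose by 1.71 in the same comparisons. Of the 6 tested genes of this list, 3 fell and none rose in LPS versus control, 5 rose and none fell in LPS+RCMNs versus LPS, and 2 rose and none fell in LPS+RCMNs versus control, with medians of -0.68, 1.20 and 0.01. Of all tested genes, 32.1% fell in the first of these comparisons, 29.8% rose in the second and 4.33% rose in the third. Abcb1a, H6pd and Nr3c2 have long implied transcripts of 5.02, 4.68 and 5.57 kb (82.7th, 79.6th and 86.6th percentile of tested genes). Their values given here, and the list's counts and medians in the comparisons with LPS, keep the length trend of the LPS libraries.

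Other genes known to be induced by glucocorticoids moved in both directions. Of 22 on the list, 19 were tested: 8 rose, 7 fell and 4 were not called in LPS versus control (median 0.33), 7 rose, 5 fell and 7 were not called in LPS+RCMNs versus LPS (median -0.07), and 3 rose, 4 fell and 12 were not called in LPS+RCMNs versus control (median 0.25). Beside these counts stand 31.4% higher and 32.1% lower of all tested genes in LPS versus control, and 29.8% higher and 29.5% lower in LPS+RCMNs versus LPS, so the list's counts in both are not far from the shares of all genes. For LPS+RCMNs versus control those shares were 4.33% and 3.23%. Lcn2, an iron-binding antibacterial protein that LPS also induces, rose by 9.09 in LPS versus control, by 0.80 in LPS+RCMNs versus LPS and by 9.89 in LPS+RCMNs versus control. Anxa1, an anti-inflammatory phospholipid-binding protein, rose by 1.60 in LPS versus control and fell by 1.31 in LPS+RCMNs versus LPS, and Nfkbia, the inhibitor of NF-kappa B, fell by 2.06 in LPS+RCMNs versus LPS. Cebpd and Gadd45b, a transcription factor and a stress response gene, rose by 0.96 and 0.71 in LPS+RCMNs versus control. Mt1, a metallothionein with a short transcript, rose by 1.56 and fell by 1.31 in the comparisons with LPS, and its direction turned in both with length removed (-0.07 and 0.18).

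Other members of that list fell in LPS versus control or in LPS+RCMNs versus control. Sesn1, a stress-induced regulator of mTOR signalling, fell by 2.53 in LPS versus control, rose by 1.51 in LPS+RCMNs versus LPS and fell by 1.02 in LPS+RCMNs versus control. Il1r2, the decoy receptor for interleukin-1, fell by 2.26, rose by 0.96 and fell by 1.31 in those comparisons. Slc19a2, a thiamine transporter, fell by 0.61 in LPS versus control, and Zbtb16, a zinc finger repressor, fell by 0.94 in LPS+RCMNs versus control (adjusted p = 0.0476), a call lost in 6 of the 8 fits that left out one library. Mertk, which encodes a receptor for the uptake of dying cells and was picked after its values were seen, was at 10.9, 4.30 and 9.61 CPM in LPS+RCMNs, 0.545 and 0.727 CPM in LPS, and 10.7, 10.2 and 11.4 CPM in control. It fell by 4.07 ± 0.46 (SE) in LPS versus control and rose by 3.69 ± 0.46 in LPS+RCMNs versus LPS. Dusp1 and Zfp36, a phosphatase and an RNA-binding protein through which glucocorticoids dampen inflammation, had other values. Dusp1 rose by 1.04 ± 0.33 in LPS versus control (adjusted p = 0.0202), a call lost with length and level removed (0.87), and was at -0.10 in LPS+RCMNs versus LPS. Zfp36 was not called in any comparison (0.33, 0.28 and 0.61).

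**Figure D5:**
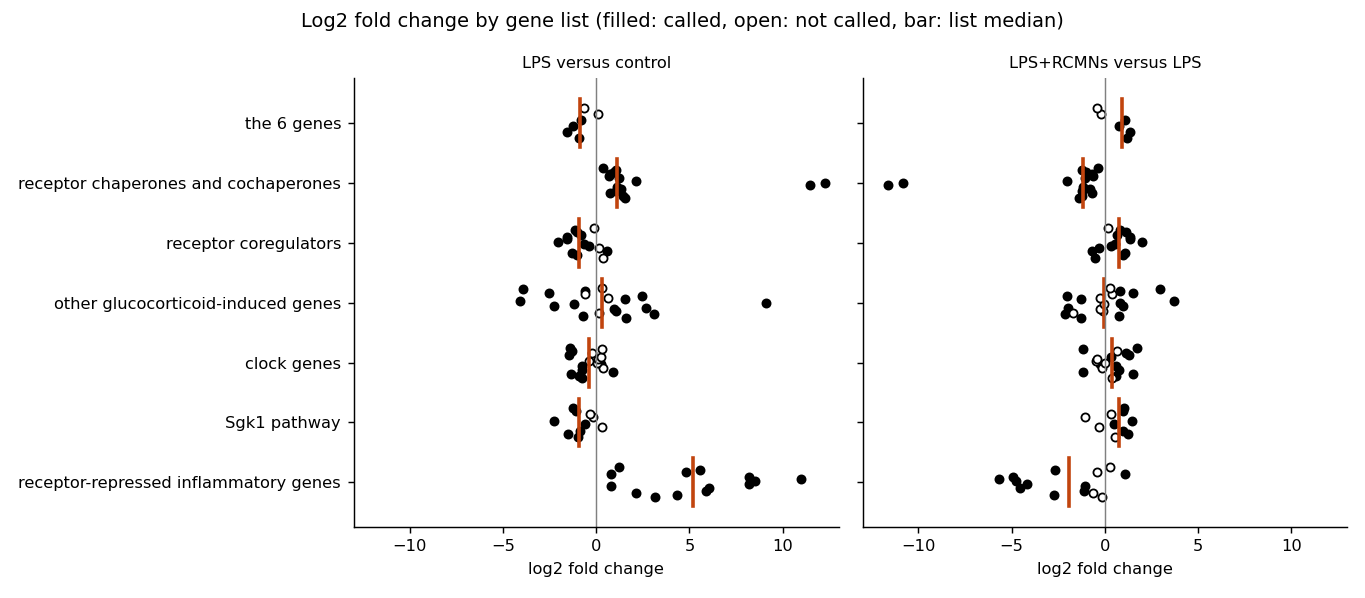
Log2 fold change of each tested gene on 7 lists in LPS versus control and LPS+RCMNs versus LPS (filled, called; open, not called), with the list median as a bar. The 15 chaperone genes lie right of 0 in the left panel and left of it in the right panel, opposite to the bars of the 6 genes and the coregulators; the coregulator and Sgk1 pathway medians go to near 0 once length and level are removed, and some directions turn on the TPM scale.

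Among the clock genes to which Per1 belongs, 17 of 20 were tested, and 2 rose, 8 fell and 7 were not called in LPS versus control (median -0.38), while 8 rose, 3 fell and 6 were not called in LPS+RCMNs versus LPS (median 0.40). Over all tested genes 31.4% were called higher and 32.1% lower in the first of these comparisons, and 29.8% higher and 29.5% lower in the second. For LPS+RCMNs versus control the shares were 4.33% higher and 3.23% lower. Bhlhe40, a clock repressor, fell by 0.90 in LPS versus control, rose by 0.59 in LPS+RCMNs versus LPS and fell by 0.31 in LPS+RCMNs versus control. Nr1d2 and Tef, a clock repressor and a clock output factor, fell by 1.47 and 1.42 in LPS versus control, and Nr1d2 rose by 1.27 in LPS+RCMNs versus LPS. Their implied transcript lengths are 4.59 and 4.21 kb (78.6th and 73.7th percentile of tested genes), and that of Ciart is 1.41 kb (15.8th). The values, counts and medians of the clock genes in the comparisons with LPS keep the length trend of the LPS libraries. Nr1d1, the paralogue of Nr1d2, was at 23.4, 24.2 and 23.3 CPM in LPS+RCMNs, 19.1 and 18.3 CPM in LPS, and 14.7, 15.7 and 16.0 CPM in control. It was the only clock gene called higher in LPS+RCMNs versus control (0.61 ± 0.10, adjusted p = 0.00749), its groups did not overlap, and it was 0.33 higher in LPS+RCMNs versus LPS (adjusted p = 0.0264). Its gene overlaps Thra on the other strand, and whether counting used strand is not stated. Ciart and Csnk1d rose by 0.88 and 0.24 in LPS versus control and fell by 1.18 and 0.25 in LPS+RCMNs versus LPS, and Rora fell by 1.16 in LPS+RCMNs versus LPS. Rora was low, at 0.709 to 2.08 CPM, with 52, 63 and 101 counts summed over the LPS+RCMNs, LPS and control libraries. The calls of Csnk1d were each lost in 5 of the 8 fits that left out one library.

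The paralogues of the members moved in both directions. Of 12 paralogues, 10 were tested, and 2 rose and 4 fell in LPS versus control, 4 rose and 2 fell in LPS+RCMNs versus LPS, and 1 fell in LPS+RCMNs versus control (medians -0.25, 0.45 and -0.11). These few calls lie near the shares of all tested genes in the comparisons with LPS (31.4% higher and 32.1% lower, then 29.8% higher and 29.5% lower). For LPS+RCMNs versus control the shares were 4.33% higher and 3.23% lower. Klf13, a relative of Klf9, was at 47.93, 53.46 and 48.93 CPM in LPS+RCMNs, 17.02 and 18.96 CPM in LPS, and 78.98, 57.12 and 57.83 CPM in control. Its groups did not overlap, with log2 fold changes of -1.85 ± 0.16 (SE) and 1.48 ± 0.16 in the comparisons with LPS, or -0.94 and 0.64 with length and level removed, all called. Klf16 was not called in any comparison. Per2 rose by 1.10 in LPS+RCMNs versus LPS and Per3 fell by 1.32 in LPS versus control, both on levels of at most 13.2 CPM. Tsc22d4 fell by 0.59 and rose by 0.53, Tsc22d2 rose by 0.44 and fell by 0.43, and Tsc22d1 was not called. Sgk3 fell by 0.40 in LPS+RCMNs versus control (adjusted p = 0.0454), a call lost in 7 of the 8 fits that left out one library, and Sgk2 was near 0 (at most 0.242 CPM).

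Although Sgk1 itself was not called by edgeR, genes of the pathway it works in were. Of 10 tested, none rose and 7 fell in LPS versus control (median -0.93), 6 rose and none fell in LPS+RCMNs versus LPS (median 0.74), and none was called in LPS+RCMNs versus control. Among all tested genes 32.1% fell in LPS versus control and 29.8% rose in LPS+RCMNs versus LPS. In LPS+RCMNs versus control 4.33% were called higher and 3.23% lower. Ndrg1, a substrate of Sgk1 that hypoxia also induces, was at 118, 67.4 and 105 CPM in LPS+RCMNs, 39.3 and 31.0 CPM in LPS, and 243, 131 and 126 CPM in control. Its groups did not overlap, and the values of -2.25 ± 0.34 (SE) and 1.46 ± 0.33 were close to those with length and level removed (-2.31 and 1.48). Pdpk1, the kinase that activates Sgk1, and Gsk3b, a kinase it inhibits, fell by 1.08 and 0.89 and rose by 0.95 and 0.94. For the list as a whole the medians with length and level removed were -0.11 and -0.06, and Gsk3b was at 0.08 and 0.01.

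The inflammatory genes that the receptor is known to repress were set beside these as the counterpart of its induced targets. All 14 rose in LPS versus control (median 5.19), 1 rose and 9 fell in LPS+RCMNs versus LPS (median -1.91), and 11 rose and none fell in LPS+RCMNs versus control (median 2.93). Of all tested genes, 31.4% rose in the first comparison, 29.5% fell in the second and 4.33% rose in the third. Il1b, encoding interleukin-1 beta, was at 6.67, 6.38 and 7.40 CPM in LPS+RCMNs, 354 and 349 CPM in LPS, and 0.0433, 0.233 and 0.232 CPM in control, and fell by 5.69 in LPS+RCMNs versus LPS. The chemokine genes Ccl3 and Ccl5 fell by 2.72 and 1.13 in that comparison, and Ccl5 turned to 0.32 with length and level removed. Mmp9, a matrix protease, rose by 1.09 there. Ccl2, Ccl3 and Ccl4 rose by 3.17, 4.32 and 2.15 in LPS versus control. Tnf was at 1.46 and Ccl2 at 2.99 in LPS+RCMNs versus control, both called, and neither was called in LPS+RCMNs versus LPS (0.25 and -0.17).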

How the data were processed

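Per the labels' protocols, RNA from 8 MH-S samples was extracted with TRIzol, captured on oligo(dT) beads and prepared for sequencing with a BGI kit. What the authors deposited is a table with an estimated count, an FPKM value and a TPM value for each gene and library, per the file headers. The counts are expected counts, since 77.82% of those above 0 lie more than 0.001 away from any whole number. The submitters' processing notes give the build as mm10, and the series' design text names FastQC for read quality. The aligner, the counter, the annotation and any use of strand: not given in the sources used here. Sample descriptions carry the code that links samples to columns; 4 columns whose code belongs to no sample were left out.

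Rounded counts were filtered (filterByExpr) and TMM scaled, with factors of 1.05 to 1.13 in LPS+RCMNs and control and of 0.779 and 0.803 in LPS. One quasi-likelihood fit in edgeR 4.0.16 (with limma 3.58.1 in R 4.3.3, prior not robust) took all 8 libraries in 3 groups, and a gene was called at a Benjamini-Hochberg adjusted p under 0.05 over 11911 genes. The biological coefficient of variation was 14.5% in common, on 5 residual and 4.15 prior degrees of freedom. Standard errors were derived as the absolute log2 fold change over the root of F, and 95% intervals carry no adjustment. A count of 0 in a library allows up to 0.130 to 0.182 CPM (3 counts, counting error only). Of the gene IDs, 17468 (99.7%) had an entry in a GRCm38.p6 table. Transcript length was inferred from the ratio of deposited counts to FPKM. The fits were tested on simulated data.

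The members, the lists and the tests were chosen with earlier results of these data known. Named were the 6 genes, per list and comparison the 3 called genes of highest mean FPKM in each direction, Fkbp4, Hsp90aa1, Hsp90ab1, Ptges3, Hsd11b1, Hsd11b2, Dusp1, Zfp36, the paralogues, and 3 genes of most similar pattern per member. Later choices are said to be so, and one gene that the rule names is not reported here. Of the remaining marker lists, macrophage markers summed to 6626 to 8263 CPM in LPS+RCMNs, 5672 to 6928 CPM in LPS and 5067 to 5983 CPM in control, while lymphocyte, epithelial, and fibroblast and endothelial markers reached at most 1.45, 0.424 and 11.1 CPM in any library. The alternatives left out libraries (each alone, or control replicate 1 with LPS+RCMNs replicate 2), used only the pair of groups compared, or took the replicate number as a block. Others changed the filter (none, or 5 FPKM in 2 libraries), the scaling (median ratios), the prior (robust) or the call (an absolute log2 fold change of 1 as well). The rest removed loess trends (span 0.4) on length or on length and level, or used DESeq2 1.42.0 or limma on log2(FPKM + 1), log2(FPKM + 0.1) and log2(TPM + 1).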

Additional observations from a re-analysis of the deposited data

How the results depend on the processing

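Of 396 values of the 6 genes under the alternatives, 365 kept their direction and call, 12 kept the direction without the call, 4 gained a call and 15 turned. Of 2010 values of the other named genes, 1744 kept both, 228 lost the call and 38 turned. The cause of each change was not tested beyond the construction of the alternative. LPS has 2 libraries, so leaving out either leaves 1, assumed to vary like the other groups, and both LPS libraries carry the length trend that the other groups lack.

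The fold minimum left 2 of the 6 genes lower in LPS versus control and 0 lower in LPS+RCMNs versus control. Leaving out single libraries gave 0 to 1 genes lower in LPS+RCMNs versus control. Without control replicate 1 and LPS+RCMNs replicate 2 together, 1 gene (Tsc22d3) was lower in LPS+RCMNs versus LPS and 1 (Fkbp5) higher in LPS+RCMNs versus control. Removing length and level left 2 higher in LPS+RCMNs versus LPS. The TPM scale, an alternative chosen after the data were seen, gave 6 lower in LPS versus control, 5 higher in LPS+RCMNs versus LPS and 2 lower in LPS+RCMNs versus control, and both FPKM scales gave 5 lower in LPS versus control, Sgk1 being the added call. Of all 11911 tested genes, the TPM scale gave 8173 lower in LPS versus control, 7947 higher in LPS+RCMNs versus LPS and 674 lower in LPS+RCMNs versus control. The FPKM scales gave 5925 and 6042 lower in LPS versus control.

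With single libraries left out, Tsc22d3 in LPS versus control ran from -1.003 to 0.26, turning without control replicate 1, and it was 0.31 without both of those libraries. Sgk1 in LPS+RCMNs versus control ran from -0.15 to 0.035, turning without LPS+RCMNs replicate 2, and it was 0.012 without both.

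In LPS versus control, removing length turned Mt1 (-0.070), Med1 (0.19), Ncor1 (0.027) and Abcb1b (0.13). Removing length and level turned Sgk1 (-0.0030), Mt1 (-0.32), Med1 (0.21), Ncor1 (0.092), Abcb1b (0.021) and Gsk3b (0.083). For LPS+RCMNs versus LPS, removing length turned Mt1 (0.18), Med1 (-0.24), Ncor1 (-0.13), Abcb1b (-0.018) and Ccl5 (0.38). Removing length and level turned Nr3c1 (-0.10), Mt1 (0.48), Med1 (-0.30), Ncor1 (-0.26), Hdac3 (0.032) and Ccl5 (0.32).

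FPKM and TPM values are not TMM scaled, and the median of all genes shifted to -0.33, -0.47 and -0.79 in LPS versus control on log2(FPKM + 1), log2(FPKM + 0.1) and log2(TPM + 1), and to 0.27, 0.40 and 0.71 in LPS+RCMNs versus LPS. In LPS versus control, log2(FPKM + 1) turned Sgk1 (-0.34), Csnk1d (-0.026) and Tsc22d2 (-0.046). The smaller pseudocount turned Sgk1 (-0.36), Csnk1d (-0.027) and Tsc22d2 (-0.059). The TPM scale turned Sgk1 (-0.84), Ptges3 (-0.23), Hdac2 (-0.43), Ciart (-0.20), Csnk1d (-0.52) and Tsc22d2 (-0.49). In LPS+RCMNs versus LPS, log2(FPKM + 1) turned Tsc22d3 (0.015), Sgk1 (0.19) and Hdac3 (0.077). The smaller pseudocount turned Tsc22d3 (0.021), Sgk1 (0.20), Hdac3 (0.080) and Tsc22d2 (0.0011). The TPM scale turned Tsc22d3 (0.46), Sgk1 (0.67), Hsp90aa1 (0.092), Ptges3 (0.21), Carm1 (0.33), Hdac2 (0.22), Hdac3 (0.56), Csnk1d (0.42) and Tsc22d2 (0.43). Relative to the shifted median, Sgk1 in LPS versus control was at -0.02 on log2(FPKM + 1) and -0.05 on log2(TPM + 1).

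Over all tested genes, 3736 higher and 3818 lower in LPS versus control became 2113 and 5925, 2118 and 6042, and 1020 and 8173 on these 3 scales, 2449 and 2644 with length and level removed, and 1774 and 1845 with the fold minimum. In LPS+RCMNs versus LPS, 3555 and 3508 became 5448 and 2117, 5602 and 2131, and 7947 and 963 on the 3 scales, 2283 and 2530 with length removed, 2278 and 2294 with length and level removed, and 1577 and 1585 with the fold minimum. In LPS+RCMNs versus control, 516 and 385 became 362 and 237 with only the groups compared, 460 and 253 with no filter, 416 and 674 on the TPM scale, 775 and 604 with DESeq2, 1755 and 1258 without both libraries that stood apart, and 209 and 105 with the fold minimum.

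Deviations of same-numbered libraries from their group means correlated at -0.339 to 0.197, and those of libraries with different numbers at -0.306 to 0.382. Within groups of 2 or 3 libraries such deviations are tied to each other, so these values cannot decide whether replicate numbers pair the samples. With the replicate number as a block, 291 genes were higher and 163 lower in LPS+RCMNs versus control, and the 6 genes kept their counts, with Nr3c1 at -0.52 (adjusted p = 0.0377).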
